A study of Mus musculus with 3 samples.

Results

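The Ifi200 genes (also called the PYHIN or HIN-200 genes) are a family of interferon-inducible genes that lie side by side on mouse chromosome 1. Their members were taken by symbol from the gene annotation of the count matrices as *Ifi203*, *Ifi204*, *Ifi207*, *Ifi209*, *Ifi211*, *Mndal* and *Aim2*, and all 7 were found among the 32285 genes. They were measured by 10x Genomics 3′ single-cell RNA sequencing in bone marrow derived macrophages (BMDMs) of female C3H/HeN mice aged 6 to 8 weeks. BMDMs were left without lipoproteins (Ctrl, given PBS and collected with the 4 h samples) or were exposed to 1 µg/mL of purified *Borrelia burgdorferi* lipoproteins (*Bb*LP), the lipid-anchored surface proteins of the Lyme disease spirochete, for 1 h (LP1) or 4 h (LP4). Each condition was 1 library, pooled from 3 wells, so that no spread between replicates could be measured and no test was possible. LP1 had no control of its own time. All intervals below are 95% intervals that cover counting error only.

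Proteins of this family carry a HIN domain, which binds double-stranded DNA, and most also carry a pyrin domain, through which they assemble with other pyrin domain proteins. *Aim2* is the member best understood: on binding DNA in the cytosol it recruits the adaptor Pycard (ASC) and caspase-1 into an inflammasome, which matures IL-1β and IL-18. Several of the other members are nuclear or shuttle between nucleus and cytoplasm, and *Ifi204* has been linked to signaling through STING and to the control of macrophage differentiation. In macrophages many of these genes are known targets of type I interferon, which acts through promoter sequences called interferon-stimulated response elements (ISREs).

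The members and the other genes of the family annotated in the matrices, 13 in all, stood within 681 kb at chr1:173350879-174031810 (GRCm38, GENCODE vM21), where the only other protein-coding gene was *Cadm3*. Some features of this locus bear on the counts below. The gene model of *Mndal* (chr1:173849126-173942491) ran on the same strand through the whole of *Ifi211* (chr1:173896345-173913046) and most of *Ifi203* (chr1:173920407-173942672). Of the 60-base words in the last 500 bases of their transcripts, where 3′ reads fall, 72.3% in *Ifi211* also occurred in *Ifi205* or *Mndal*, and 61.5% in *Ifi209* also occurred in *Ifi214*. The shared fraction was 11.9% for *Mndal*, 1.15% for *Ifi207* and 0% for *Ifi203*, *Ifi204* and *Aim2*. How reads of the shared stretches were divided between these genes, or whether they were counted at all, was not tested. The counts of *Ifi211* and *Ifi209* are therefore the least certain of the 7. *Aim2* (chr1:173350879-173466040) overlapped *Cadm3* on the other strand.

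The RefSeq starts of the genes are shown because 4 of the 6 members with a RefSeq promoter shared a short motif there. The motif searched, GAAANNGAAA on either strand, is the core of an ISRE, and it was present in 3.44% of 32851 promoters of 300 bases (250 before and 50 after the start). The lines below give the 100 bases before the start (RefSeq, GRCm38.p6, 5′ to 3′ on the strand of the gene), with the ISRE-like bases in capitals. The positions are chr1:173942493-173942592 for *Ifi203*, chr1:173880188-173880287 for *Mndal*, chr1:173741810-173741909 for *Ifi207* and chr1:173913047-173913146 for *Ifi211*, all on the minus strand.
Ifi203: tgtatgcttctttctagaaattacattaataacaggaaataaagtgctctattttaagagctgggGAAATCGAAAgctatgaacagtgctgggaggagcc
Mndal: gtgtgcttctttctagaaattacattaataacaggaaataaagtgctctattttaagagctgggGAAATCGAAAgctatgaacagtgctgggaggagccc
Ifi207: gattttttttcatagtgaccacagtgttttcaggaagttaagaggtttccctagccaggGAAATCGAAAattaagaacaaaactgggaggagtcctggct
Ifi211: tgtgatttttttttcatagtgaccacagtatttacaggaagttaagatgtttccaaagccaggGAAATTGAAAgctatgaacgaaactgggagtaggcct

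In all 4 the match began 35 to 41 bases before the start, and the 4 promoters formed 2 pairs. Those of *Mndal* and *Ifi203* were identical at 90.7% of aligned bases, and those of *Ifi207* and *Ifi211* at 85.9%. *Ifi203* and *Mndal* each had a further RefSeq start. The RefSeq starts of *Mndal* lie inside its gene model, whose 5′ end (chr1:173942491) adjoins the printed *Ifi203* window. The window of the further *Mndal* start held an ISRE-like match on the other strand, at position -54, and that of the further *Ifi203* start held none.

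The promoter of *Ifi209* held no match, and it is printed beside that of its neighbor *Ifi214*, a family gene outside the 7 members, because the promoters of the 2 genes were identical at 95.3% of aligned bases. In *Ifi209* (plus strand, chr1:173630759-173630858) the capitals mark the 10 bases aligned with the match of *Ifi214* (minus strand, chr1:173535958-173536057).
Ifi214: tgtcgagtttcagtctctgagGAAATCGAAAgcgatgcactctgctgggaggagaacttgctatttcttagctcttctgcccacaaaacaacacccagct
Ifi209: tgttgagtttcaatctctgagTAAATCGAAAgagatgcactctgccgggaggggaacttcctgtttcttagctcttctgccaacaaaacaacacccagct

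The substitution between these 10 bases was G1T, counted from 1 at their 5′ end with the base of *Ifi214* first. The reference sequence comes from another mouse strain than the C3H/HeN mice, so these letters need not be those of the cells studied. *Aim2* (plus strand, chr1:173420504-173420603) held no ISRE-like match in its 300 bases. This RefSeq start lies inside the gene model of *Aim2* (chr1:173350879-173466040), and the start of that model was not searched.
Aim2: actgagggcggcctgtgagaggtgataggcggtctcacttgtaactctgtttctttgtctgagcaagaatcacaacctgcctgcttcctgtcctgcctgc

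A GAS-like motif, TTCNNNGAA, was in none of the 6 members' promoters and in 8.30% of all promoters. A kappaB-like motif, GGGNNNNNCC, was in those of *Ifi203*, *Ifi209* and *Mndal* and in 50.8% of all promoters. A match is a description of the letters and not evidence of binding, and no test was made of these counts.

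After the cell filter 6071 Ctrl, 5065 LP1 and 4670 LP4 cells were kept, with a median of 5133, 9343 and 11784 unique molecular identifiers (UMIs, one per captured mRNA) per cell and 35688939, 52475723 and 61402275 UMIs in all. The macrophage label held: all 12 macrophage markers reached 10 counts per 1000000 UMIs (CPM) in each library, with summed levels of 12423 to 13063 CPM. Of the neutrophil markers 4 of 14 reached 10 CPM, summing to 307 to 578 CPM and highest in LP4, and of the dendritic cell markers 4 of 12 did, summing to 224 to 237 CPM. Cycling markers summed to 745 to 837 CPM with 8 to 11 of 13 at 10 CPM, whereas stromal markers (3.67 to 16.7 CPM, 0 of 5, highest in LP4), lymphocyte markers (0 of 8, with *Cd3e* and *Trbc2* at 0), mast cell or basophil markers (0 of 3) and erythroid markers (0 of 2) did not reach that level. Between 4 and 10 barcode sequences were shared by any pair of libraries.

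The 7 members together were at a like level in Ctrl and LP1 and were 3.74-fold higher in LP4 than in Ctrl. The 7 members summed to 885 CPM in Ctrl (875 to 894), 873 CPM in LP1 (865 to 881) and 3310 CPM in LP4 (3296 to 3325). As a log2 ratio LP1 over Ctrl was -0.02 (-0.04 to 0.00), and LP4 over Ctrl was 1.90 (1.89 to 1.92). Each of the 7 members was at least 2-fold higher in LP4 than in Ctrl, where 11.6% of the 14361 genes with at least 20 UMIs were. Likewise 7 of 7 were at least 2-fold higher in LP4 than in LP1, against 10.9% of genes, and 0 of 7 were so in LP1 over Ctrl, against 1.45%. The comparisons share libraries and are not independent of each other. The members were also chosen with earlier results of these data known, so these counts describe them and are no independent support. The median log2 ratio of the 7 was 2.02 for LP4 over Ctrl and -0.01 for LP1 over Ctrl, and the medians over all genes were -0.15 and -0.04. Fewer expressing cells and less RNA per cell cannot be told apart in such sums. Shares of cells with a UMI are given further on, but they do not separate the 2 either.

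**Figure D1:**
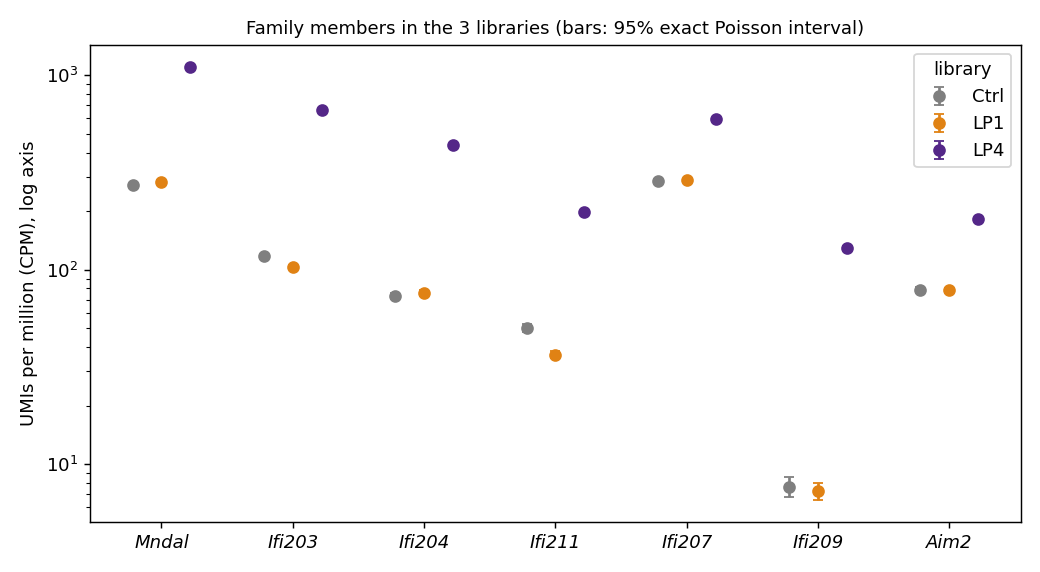
CPM of the 7 members (log axis) in the Ctrl, LP1 and LP4 libraries, with bars for the 95% exact Poisson interval, which mostly lie within the points. For every member the Ctrl and LP1 points lie close together and the LP4 point lies above both, by the widest margin for *Ifi209* (7.62, 7.24 and 129 CPM).

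*Mndal*, a nuclear protein linked to growth control, was the most abundant member after 4 h. Its level was 272 CPM in Ctrl and 284 CPM in LP1, and reached 1104 CPM in LP4. The LP4 level was 4.06-fold that of Ctrl (log2 ratio 2.02, 1.99 to 2.05), and *Mndal* supplied 30.7%, 32.5% and 33.3% of the UMIs of the 7 members in Ctrl, LP1 and LP4.

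*Ifi203*, a further nuclear member and the gene whose promoter is nearly the same as that of *Mndal*, was at 117 CPM in Ctrl, 103 CPM in LP1 and 664 CPM in LP4. Its log2 ratio was 2.50 (2.46 to 2.55) for LP4 over Ctrl and -0.18 (-0.24 to -0.12) for LP1 over Ctrl. Its part of the family's UMIs went from 13.2% in Ctrl to 20.0% in LP4. *Ifi203* thus stood apart from *Mndal* in the size of the difference, although the overlap of their gene models leaves the counts of both uncertain. Summed over *Ifi203*, *Ifi211* and *Mndal*, the 3 genes with overlapping models, the log2 ratio was 2.16 (2.14 to 2.19) for LP4 over Ctrl and -0.05 (-0.08 to -0.02) for LP1 over Ctrl.

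*Ifi204* had 73.2 CPM in Ctrl, 76.0 CPM in LP1 and 439 CPM in LP4, a 6.00-fold higher level in LP4 than in Ctrl (log2 ratio 2.58, 2.53 to 2.64). None of its 3′ words was shared with another gene. Its part of the UMIs of the 7 members went from 8.28% to 13.3%.

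*Ifi211* differed most between LP1 and Ctrl, at 50.02 CPM in Ctrl, 36.6 CPM in LP1 and 197 CPM in LP4. The log2 ratio of LP1 over Ctrl was -0.45 (-0.55 to -0.36) for *Ifi211*. The interval of *Ifi203* also lay below 0 in that comparison, and that of *Mndal*, 0.06 (0.03 to 0.10), above 0. How many of all genes had an interval clear of 0 was not counted, and ratios this near 0 moved with the scaling. With another scaling of the libraries (TMM factors) *Ifi207* went from 0.01 to 0.08. Over 9 alternative settings LP1 over Ctrl lay between -0.46 and -0.38 for *Ifi211*, -0.20 and -0.11 for *Ifi203*, and 0.05 and 0.14 for *Mndal*. For *Ifi211* LP4 over Ctrl had a log2 ratio of 1.98 (1.91 to 2.05). Summed with *Ifi205* and *Mndal*, the genes that share its 3′ sequence, it gave -0.01 (-0.04 to 0.03) and 2.06 (2.03 to 2.09). Most UMIs of that sum are those of *Mndal* (9695 of 11576 in Ctrl), so that it bears little on *Ifi211* itself.

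*Ifi207* was the most abundant member in Ctrl and differed least after 4 h. It was at 286 CPM in Ctrl, 288 CPM in LP1 and 596 CPM in LP4. The ratio of LP4 over Ctrl was 2.08-fold (log2 1.06, 1.03 to 1.09), just past the 2-fold limit, and its part of the UMIs of the 7 members went from 32.3% to 18.0%. With each cell given the same weight, in place of each UMI, the log2 ratio was 0.94, below that limit.

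*Ifi209* was the least abundant member in every library and had the largest ratio. It was at 7.62 CPM in Ctrl (272 UMIs), 7.24 CPM in LP1 (380 UMIs) and 129 CPM in LP4 (7914 UMIs), 16.9-fold higher in LP4 than in Ctrl (log2 4.08, 3.91 to 4.26). Together with *Ifi214*, with which it shares its 3′ end, it was at 9.58 CPM without lipoproteins and at 156 CPM after 4 h (log2 ratio 4.03, 3.87 to 4.19). *Ifi209* ranked 81st among the 14361 genes by the ratio of LP4 over Ctrl, *Ifi204* 314th, *Ifi203* 330th, *Mndal* 538th, *Ifi211* 556th, *Aim2* 1285th and *Ifi207* 1552nd.

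*Aim2*, the inflammasome sensor, was at 78.7 CPM in Ctrl, 78.2 CPM in LP1 and 182 CPM in LP4. The ratio of LP4 over Ctrl was 2.31-fold (log2 1.21, 1.15 to 1.27), the second smallest of the family, and its part of the UMIs of the 7 members went from 8.90% to 5.49%. LP1 over Ctrl had a log2 ratio of -0.01 (-0.08 to 0.06).

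The order of the members therefore differed between the libraries. In Ctrl it was *Ifi207*, *Mndal*, *Ifi203*, *Aim2*, *Ifi204*, *Ifi211* and *Ifi209*, and the intervals of *Aim2* (75.9 to 81.7) and *Ifi204* (70.4 to 76.1) touched. In LP1 the order was the same, with overlapping intervals for *Ifi207* and *Mndal* and for *Aim2* and *Ifi204*. In LP4 it was *Mndal*, *Ifi203*, *Ifi207*, *Ifi204*, *Ifi211*, *Aim2* and *Ifi209*, with no overlap of neighboring intervals. These are 3′ UMI counts, 1 per captured molecule, and are not divided by transcript length.

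Total RNA captured per cell also differed between the libraries, and CPM remove that difference. In UMIs per cell the 7 members went from 5.20 in Ctrl to 9.05 in LP1 and 43.5 in LP4, 8.37-fold over Ctrl. The UMIs of all genes per cell went from 5879 to 10360 and 13148, 2.24-fold over Ctrl. Whether the LP4 cells held more RNA or were captured more deeply was not tested.

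The 6 other genes of the family in the matrices, out of 10 further symbols looked for, were also at least 2-fold higher in LP4 than in Ctrl, where 11.6% of all genes were. *Ifi202b*, a member without a pyrin domain that inhibits *Aim2*, was at 117 CPM in Ctrl, 113 CPM in LP1 and 466 CPM in LP4 (log2 LP4 over Ctrl 2.00, 1.95 to 2.05). *Ifi205* was at 2.69, 2.46 and 51.7 CPM (log2 4.27, 3.97 to 4.57), the largest ratio of the 13 genes. Its interval overlapped that of *Ifi209* (3.91 to 4.26), and its Ctrl level rests on 96 UMIs. Of its 3′ words 74.1% also occurred in *Ifi211* or *Mndal*, so its count is uncertain too. *Ifi214* was at 1.96, 1.33 and 27.5 CPM (log2 3.81, 3.46 to 4.17). *Ifi208*, *Ifi206* and *Ifi213* stayed below 6 CPM in every library. With 8 UMIs of *Ifi206* and 4 UMIs of *Ifi213* in Ctrl these ratios are uncertain, and the interval of *Ifi213* (log2 0.77 to 4.22) reached below 2-fold. Along the locus the smallest ratios were those of *Aim2*, at one end, and of *Ifi207*, in the middle.

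**Figure D2:**
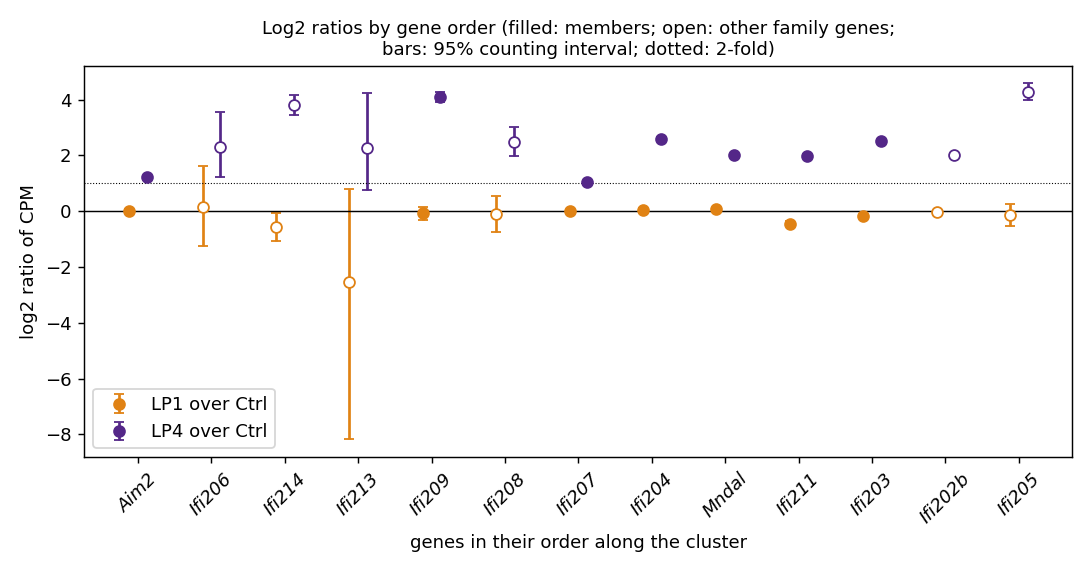
Log2 ratios of CPM for the 13 family genes in their order along the chromosome, LP1 over Ctrl and LP4 over Ctrl, with bars for the 95% counting interval, filled points for the 7 members, open points for the 6 other family genes and a dotted line at 2-fold. All 13 LP4 points lie above the 2-fold line, with *Ifi205* (4.27) and *Ifi209* (4.08) highest, and the LP1 points lie near or below 0, the wide bar of *Ifi213* resting on 4 UMIs in Ctrl and 1 UMI in LP1.

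The other genes of the same pathways were read from lists chosen with earlier results of these data known, so counts over them are no independent support. Of all genes 15.6% were at least 2-fold lower in LP4 than in Ctrl. Of 20 interferon-stimulated genes outside the family, 17 were at least 2-fold higher in LP4 than in Ctrl, where 11.6% of all genes were. The median log2 ratio of the 20 was 2.15, beside 2.02 for the 7 members. *Rsad2* (viperin, an antiviral enzyme) was at 130, 107 and 4995 CPM in Ctrl, LP1 and LP4. *Ifit1*, which binds foreign RNA, was at 39.4, 32.0 and 1998 CPM, and *Cmpk2*, a mitochondrial nucleotide kinase, at 15.5, 14.7 and 719.7 CPM. In LP1 over Ctrl 1 of the 20 genes was at least 2-fold higher, against 1.45% of all genes, and the median log2 ratio was -0.31.

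Of 8 listed genes around the *Aim2* inflammasome, 5 were at least 2-fold higher in LP4 than in Ctrl, where 11.6% of all genes were. The 1 gene at least 2-fold lower was *Nlrp3*, and the median log2 ratio was 1.05. *Pycard*, the adaptor, was lower in LP4, at 113, 147 and 65.7 CPM in Ctrl, LP1 and LP4 (log2 LP4 over Ctrl -0.78, -0.84 to -0.72). *Casp1*, which encodes caspase-1, was just past the 2-fold limit, at 37.1, 36.4 and 77.1 CPM (log2 1.05, 0.97 to 1.14). *Il1b*, the cytokine matured by caspase-1, was at 391 CPM in Ctrl, 448 CPM in LP1 and 940 CPM in LP4 (log2 LP4 over Ctrl 1.26, 1.24 to 1.29). *Nlrp3*, the sensor of another inflammasome, went the other way, at 573, 533 and 197 CPM (log2 -1.54, -1.57 to -1.51).

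Of 15 other genes of cytosolic DNA sensing and clearance, 3 were at least 2-fold higher in LP4 than in Ctrl, where 11.6% of all genes were, and 1 was at least 2-fold lower. Their median log2 ratio was -0.21, beside 2.02 for the 7 members and -0.15 for all genes. *Samhd1*, which degrades deoxynucleotides, was at 181, 162 and 780.2 CPM in Ctrl, LP1 and LP4 (log2 LP4 over Ctrl 2.11), and *Cgas*, the enzyme that makes the STING ligand cGAMP on binding DNA, at 16.3, 20.3 and 58.6 CPM (log2 1.84). *Lrrfip1*, a nucleic acid binding protein, was at 395, 359.6 and 301 CPM (log2 -0.39).

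Of 11 genes of type I interferon signaling 4 were at least 2-fold higher in LP4 than in Ctrl, where 11.6% of all genes were. The median log2 ratio of the 11 was 0.55. Only 2, 10 and 96 UMIs of *Ifnb1*, which encodes interferon β, were counted in Ctrl, LP1 and LP4, and its log2 ratio of LP4 over Ctrl was 4.80 with an interval of 2.91 to 7.87. *Socs1*, a feedback inhibitor of interferon signaling, was at 1.68, 3.85 and 90.7 CPM (log2 5.75). The receptor genes *Ifnar1* (log2 0.55) and *Ifnar2* (log2 0.43) stayed within 2-fold. Of 7 genes of lipoprotein sensing 4 were at least 2-fold higher in LP4 than in Ctrl, against the same 11.6% of all genes. Their list had a median log2 ratio of 1.20. *Cd14*, the co-receptor, was at 291, 597 and 1399 CPM, and was 2-fold higher already in LP1 (log2 1.04, 1.00 to 1.07), unlike any of the 7 members. *Tlr2*, the lipoprotein receptor, was at 107, 119 and 309 CPM, and its adaptor *Myd88* at 15.4, 21.9 and 58.0 CPM.

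Counted cell by cell, more LP4 cells held a UMI of each member, and held more of the members at once. The share of cells with a UMI rises with the mean number of UMIs per cell. It therefore cannot tell more expressing cells from more RNA per cell, which was not tested. Because more UMIs were counted per cell in LP4, the comparison used 2000 UMIs drawn from each cell. Cells with fewer were dropped, 122 from Ctrl, 13 from LP1 and 45 from LP4. *Mndal* was detected in 34.2% of Ctrl cells (33.0 to 35.5), in 34.7% of LP1 cells (33.4 to 36.0) and in 79.0% of LP4 cells (77.8 to 80.2). *Ifi203* was found in 20.0%, 18.1% and 67.7% of cells, *Ifi207* in 41.7%, 42.1% and 67.1%, and *Ifi204* in 14.4%, 13.3% and 56.8%. The share with *Ifi211* was 9.46%, 7.60% and 32.8%, and that with *Ifi209* was 1.33%, 1.66% and 21.8%. *Aim2* was found in 14.4% of Ctrl cells (13.5 to 15.3), 13.7% of LP1 cells (12.7 to 14.6) and 25.7% of LP4 cells (24.4 to 27.0).

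At least 1 of the 7 members was found in 73.0%, 72.2% and 98.1% of thinned cells in Ctrl, LP1 and LP4. Without thinning the shares were 91.8%, 97.0% and 99.6%, an order in which LP1 stood above Ctrl together with its depth. Cells with UMIs of 3 or more members made up 16.5% of the Ctrl library, 14.7% of LP1 and 77.0% of LP4. Cells with none made up 27.0%, 27.8% and 1.86%. Neutrophil-like cells, a small cluster in the same libraries, were set beside these as cells of another type. In LP4 none of 28 had a UMI of 6 of the members after thinning, which allows a share of up to 12.3%. Of *Aim2*, 2 of 28 had one (7.14%, 0.877 to 23.5). Without thinning 11 of the 28 had one of *Aim2* (39.3%, 21.5 to 59.4), and 1 each had one of *Ifi207* and *Mndal*. Whether the *Aim2* UMIs of these cells were background or their own was not tested. Their median depth before thinning was 9262 UMIs, against 11838 UMIs over all LP4 cells thinned. In Ctrl, with median depths of 3947 UMIs in these cells and 5194 UMIs over all thinned cells, 3 of 21 had a UMI of *Aim2* (14.3%, 3.05 to 36.3), a share not distinguishable from the 14.4% of all Ctrl cells at this number of cells.

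**Figure D3:**
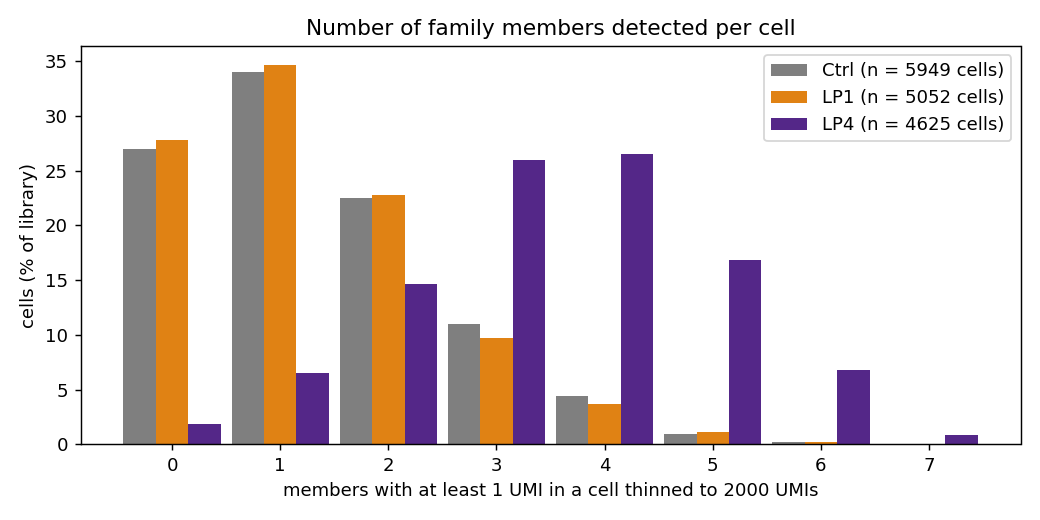
Percent of cells by the number of the 7 members with at least 1 UMI, after thinning each cell to 2000 UMIs, for 5949 Ctrl, 5052 LP1 and 4625 LP4 cells. The Ctrl and LP1 bars peak at 1 member (34.0% and 34.7% of cells), and the LP4 bars peak at 4 members (26.5%), with 1.86% of LP4 cells at 0.

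The UMIs of the 7 members were spread over cells more unevenly than counting alone gives. In thinned cells the variance of the sum of the 7 members divided by its mean was 2.52, 2.79 and 2.63 in the 3 libraries, where counting gives 1. This ratio grows with the mean, and the variance beyond counting divided by the squared mean was 0.77, 0.92 and 0.24, so that the relative spread was smallest in LP4. The median cell held 1 UMI of the 7 members in Ctrl and LP1 and 6 in LP4, and the 10th and 90th percentiles in LP4 were 2 and 12. Of the single members in LP4, *Aim2* (0.73), *Ifi209* (0.70) and *Mndal* (0.59) had the highest relative spread, and *Ifi204* (0.15) the lowest. In Ctrl *Ifi209* had 14.4 and *Mndal* 2.19, the former from a mean of 0.0148 UMIs per cell.

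Clusters were made without the members and from genes that differed by less than 1.5 times between libraries, centered within each library, so that each of 7 clusters (A to G) had at least 50 cells in every library. Clusters A to E were macrophage-like, cluster F was cycling-like, led by histone and *Top2a* transcripts, and cluster G was dendritic cell-like, led by MHC class II genes. The name of cluster G rests on *H2-Eb1*, *H2-Aa*, *H2-Ab1*, *Cd74* and *Ciita*. As in clusters C and E, 7 macrophage markers were found in at least 50% of its cells. Macrophages high in MHC class II cannot be told apart from dendritic cells there. In cluster A, led by *Egr3*, *Apoe*, *Ms4a6b*, *Nr4a3* and *Cd86*, the 7 members summed to the highest level in each library, 1684 CPM in Ctrl, 1731 CPM in LP1 and 4548 CPM in LP4. The lowest sums were those of cluster E in Ctrl (453 CPM) and LP1 (497 CPM) and of cluster F in LP4 (2364 CPM). The range over the 7 clusters was 3.72-fold in Ctrl, 3.48-fold in LP1 and 1.92-fold in LP4, and all 7 clusters were higher in LP4 than in Ctrl, with log2 ratios from 1.43 in cluster A to 2.53 in cluster E. Cluster E, lowest in Ctrl, had the largest ratio, and cluster A, highest in Ctrl, the smallest. The Ctrl level is the divisor of these ratios, so the 2 orders are not independent.

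The members differed in how evenly they were placed. *Ifi203* ranged from 41.0 CPM in cluster E to 269 CPM in cluster A in Ctrl, and its log2 ratio of LP4 over Ctrl from 1.78 in cluster A to 3.70 in cluster E. *Mndal* ranged from 107 CPM in cluster C to 594 CPM in cluster A in Ctrl, with log2 ratios from 1.45 in cluster A to 3.07 in cluster C. *Ifi207* had log2 ratios from 0.74 in cluster A to 1.66 in cluster E, so that it was under 2-fold in the cluster where it was most abundant.

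*Aim2* did not follow the sum of the 7 members across clusters in LP4. In Ctrl it was highest in cluster A, at 108 CPM (100.2 to 115.5), and lowest in cluster B, at 55.3 CPM (49.0 to 62.2). In LP1 it was likewise highest in cluster A, at 105 CPM, and lowest in cluster B, at 57.9 CPM. In LP4 cluster A was the lowest of the 7, at 125 CPM (119 to 132), and cluster C the highest, at 244 CPM (235 to 254), with an interval that overlapped that of cluster E (227 to 248). The log2 ratio of LP4 over Ctrl was 0.22 in cluster A and 1.76 in cluster C, where the sum of the 7 members had 2963 CPM in LP4. At a finer resolution of 0.8 the cells led by *Egr3* and *Cd86* fell into a cluster of 1514 Ctrl, 1109 LP1 and 62 LP4 cells, while another cluster held 130, 79 and 1136, so that the Ctrl and LP4 cells of cluster A need not be the same kind of cell. In LP4 cluster A held the highest sum of the 7 members and the lowest level of *Aim2* of the 7 clusters. The summed interferon-stimulated genes were at 16239 CPM in cluster A in LP4 and at 13198 CPM in cluster C.

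**Figure D4:**
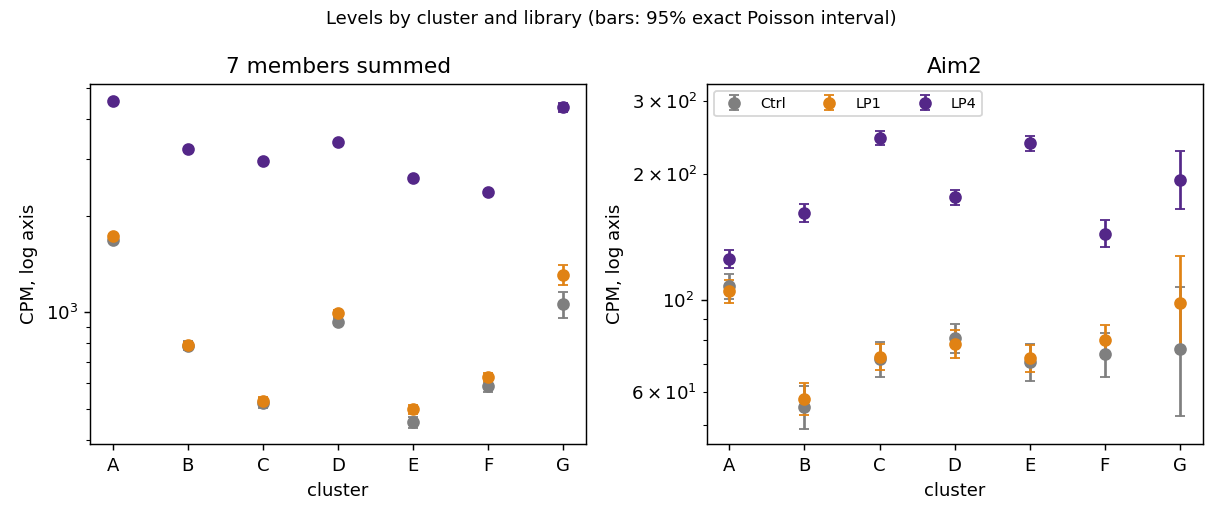
CPM (log axis) of the 7 members summed (left) and of *Aim2* (right) in clusters A to G of the Ctrl, LP1 and LP4 libraries, with bars for the 95% exact Poisson interval. The sum is highest in cluster A in every library, whereas *Aim2* in LP4 is lowest in cluster A (125 CPM) and highest in cluster C (244 CPM).

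The 2 clusters with under 50 cells per library were also counted. In the neutrophil-like cells the 7 members summed to 115 CPM in Ctrl (12 UMIs), 170.3 CPM in LP1 (24 UMIs) and 66.8 CPM in LP4 (16 UMIs), with overlapping intervals of 59.3 to 200.4 and 38.2 to 108 CPM in Ctrl and LP4. Most of these UMIs were those of *Aim2*. It had 0.25 of 0.375 UMIs per cell in Ctrl, 0.52 of 0.96 in LP1 and 0.5 of 0.571 in LP4. In LP1 the UMIs of *Ifi203* (0.16 per cell) and of *Mndal* (0.28 per cell) each came from 1 of 25 cells, so the LP1 sum rests on few cells. A cluster led by collagen and *Mgp* transcripts, left unnamed, had 885, 1155 and 2082 CPM in its 25 Ctrl, 20 LP1 and 20 LP4 cells. At resolutions 0.3 and 0.8 the cluster led by these transcripts held 13 cells in all, against 65 here. These levels therefore need not be those of collagen-expressing cells.

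Within each library the members were also read along the cells' own level of interferon-stimulated genes. Cells were ranked by the share of their UMIs from the 20 interferon-stimulated genes outside the family and divided into 4 equal groups. The 7 members summed to 579 CPM in the lowest group of Ctrl and 1490 CPM in the highest, to 544 and 1491 CPM in LP1, and to 2180 and 4723 CPM in LP4. The log2 ratio of the highest over the lowest group was 1.36, 1.46 and 1.12. The lowest group of LP4 was thus above the highest group of Ctrl for the sum, as it was for the ranking genes themselves (4834 against 3425 CPM). Among the members *Aim2* alone went the other way, at 84.6 CPM (79.9 to 89.5) in the lowest LP4 group and 96.2 CPM (89.6 to 103.2) in the highest Ctrl group. The groups' median depths lay between 4687 and 5545 UMIs in Ctrl, 8543 and 9752 in LP1 and 10967 and 12618 in LP4, and 586 Ctrl, 249 LP1 and 2 LP4 cells of the lowest groups had no UMI of a ranking gene. In sparse counts the ranking is itself uncertain, most of all in Ctrl.

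Each of *Ifi203*, *Ifi204*, *Ifi209*, *Ifi211*, *Mndal* and *Ifi207* was higher in the highest than in the lowest group of every library. The steepest was *Ifi209*, with log2 ratios of 3.49 (2.77 to 4.30) in Ctrl, 4.24 (3.49 to 5.09) in LP1 and 1.98 (1.87 to 2.09) in LP4. Its lowest groups held only 17 UMIs in Ctrl and 15 in LP1, against 806 in LP4. *Ifi203* had 2.13, 2.27 and 1.49, and *Ifi204* had 1.80, 2.29 and 0.98. The shallowest of these 6 was *Ifi207*, with 0.96, 1.05 and 0.71.

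*Aim2* had another order of libraries, a difference that could not be tested with 1 library each. Its log2 ratio of the highest over the lowest group was 0.51 (0.35 to 0.67) in Ctrl, 0.12 (-0.01 to 0.24) in LP1 and 1.54 (1.44 to 1.63) in LP4. In LP4 it went from 84.6 CPM in the lowest group to 174, 221 and 246 CPM, and the lowest group of LP4 overlapped the lowest group of LP1, at 79.0 CPM (74.2 to 84.0), in its interval of 79.9 to 89.5 CPM. The 3 ratios stood in the same order when cells of cluster A, which held 27.7% of the lowest and 40.5% of the highest group in LP4, were ranked alone, with *Aim2* log2 ratios of 0.71 (0.40 to 1.02), 0.03 (-0.23 to 0.28) and 2.19 (1.90 to 2.48) in Ctrl, LP1 and LP4. In the cells of the other clusters they were 0.20 (0.02 to 0.39), 0.02 (-0.13 to 0.16) and 1.57 (1.47 to 1.67). The lowest groups themselves differed, however. In cluster A the lowest group had 43.5 CPM of *Aim2* (36.0 to 52.1) in LP4 and 112 CPM (98.7 to 126.9) in LP1, and in the other clusters it had 94.0 CPM (88.6 to 99.8) in LP4 and 74.7 CPM (69.5 to 80.2) in LP1.

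**Figure D5:**
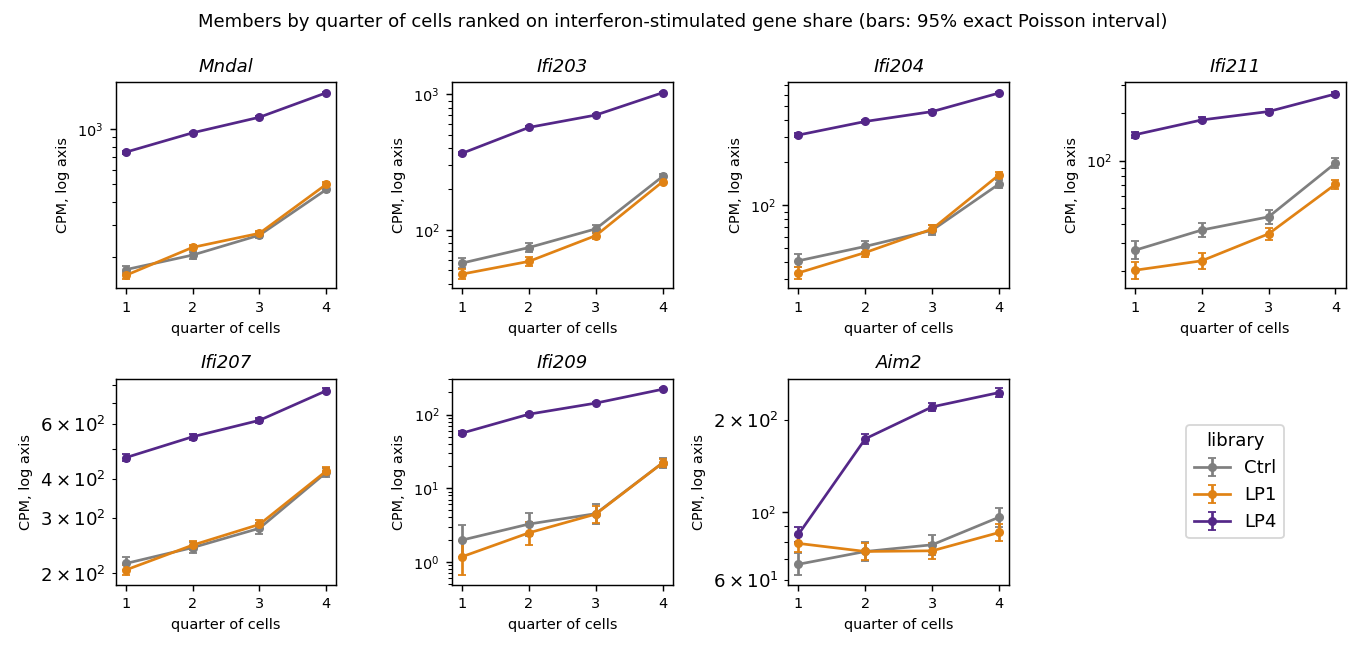
CPM (log axis, scaled to each gene) of the 7 members in 4 equal groups of cells, ranked from 1 (lowest) to 4 (highest) by the share of UMIs from interferon-stimulated genes outside the family, in the Ctrl, LP1 and LP4 libraries, with bars for the 95% exact Poisson interval. In 6 members the 3 lines climb from group 1 to 4, whereas for *Aim2* the LP1 line is nearly flat (79.0 to 85.7 CPM) and the LP4 line climbs from 84.6 to 246 CPM.

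The genes whose levels were most like the sum of the 7 members were sought over the 21 combinations of library and cluster A to G, among 8103 genes. By Pearson correlation of log2(CPM + 1) they were *Iigp1* (0.986), *Parp14* (0.980), *Ifi47* (0.980), *Stat3* (0.979) and *Sp140* (0.979). With each library centered on its own mean, which removes the difference between LP4 and the rest, they were *Parp14* (0.973), *Fcgr2b* (0.972), *Ms4a4a* (0.970), *Sp100* (0.957) and *Trim30a* (0.956). *Parp14* was the gene found both ways, at 205, 159.6 and 1117 CPM in Ctrl, LP1 and LP4. The 21 points share 3 libraries and are not independent, and the correlations are given as a description.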

How the data were processed

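The deposited files hold UMI counts, which the authors made with Cell Ranger (version 7.1.0 per the labels) on the mouse genome mm10, as 1 matrix of 32285 genes for each of 3 libraries (6123 Ctrl, 5119 LP1 and 5039 LP4 barcodes). Whether intronic reads were counted is not given in the sources used here. Cells with over 500 UMIs, over 500 genes and under 5% mitochondrial UMIs were kept, and no doublets were removed. Counts were summed per library and given as CPM with exact Poisson intervals, and ratios with exact conditional binomial intervals. With 1 library per condition no p-value was computed, and a gene was called at 2-fold, among genes with at least 20 UMIs in the pair. Shares of cells have exact Clopper-Pearson intervals after thinning to 2000 UMIs. Clusters came from scanpy 1.11.5 (2000 genes, 30 components, 20 neighbors, Leiden resolution 0.5) and were named from marker lists. TMM factors came from edgeR 4.0.16. Promoters are those of RefSeq, and no promoter of *Ifi204* was used here. The interval and thinning steps were tested on simulated data. Every member is reported. From each list the 2 genes with the highest CPM and the 2 with the largest absolute log2 ratio of LP4 over Ctrl are named, and the 5 genes with the highest correlation. *Pycard* and *Casp1* are named besides, as partners of *Aim2*. The members and lists were chosen with earlier results of these data known. Windows of 100 bases, the *Ifi214* comparison, the summed genes and the values within cluster A were chosen after seeing the data.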

Additional observations from a re-analysis of the deposited data

Results flagged for a closer look

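Barcodes at or over the 5% mitochondrial limit were left out of the values reported above. In the 273 such LP4 barcodes the 7 members summed to 2535 CPM (2481 to 2590), above the 1235 CPM (904 to 1647) of the 18 such Ctrl barcodes, and the 43 such LP1 barcodes had 883 CPM (778 to 998). The kept LP4 cells had 3310 CPM.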

How the results depend on the processing

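No paired analysis was possible because each condition was 1 library and no result comes from a test. The log2 ratio of the summed members for LP4 over Ctrl, 1.90, was 2.07 with TMM factors, 2.11 with median-of-ratios factors, 1.88 without mitochondrial and ribosomal genes, 1.78 as the mean of cell shares, and 1.89 both with all deposited barcodes and with no mitochondrial limit. For LP1 over Ctrl, -0.02 became 0.053 with TMM and 0.057 with median-of-ratios factors, and these scalings moved the median of all genes at or over 10 CPM for LP4 over Ctrl from -0.07 to 0.10 and 0.13. The 7 members at least 2-fold higher in LP4 were 7 under 8 of the 9 alternatives and 6 with the mean of cell shares, where *Ifi207* had 0.94. At resolution 0.8 the lowest cluster ratio of LP4 over Ctrl was 1.25, against 1.43. No call changed direction. With 1 library per condition, differences between libraries and between conditions cannot be told apart.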
